A study of Danio rerio with 20 samples.

Results

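Retinoic acid synthesis and turnover genes were followed through zebrafish caudal fin regeneration in 20 RNA-seq libraries. The members were the genes whose symbols begin with aldh1a, cyp26, crabp, rbp and a digit, rdh, or rar and a, b or g among the symbols printed in the study's tables of regeneration genes and open chromatin regions, as far as those tables were supplied. The rule gave 10 of the 32105 genes counted. These were rbp4 (ENSDARG00000101199), aldh1a2 (ENSDARG00000053493), aldh1a3 (ENSDARG00000076933), cyp26a1 (ENSDARG00000033999), crabp1b (ENSDARG00000035904), crabp2b (ENSDARG00000030449), rbp5 (ENSDARG00000101481), rbp7a (ENSDARG00000091906), rarab (ENSDARG00000034893) and rargb (ENSDARG00000054003). No rdh gene was among them. Of the 10 members, 9 stood in the table of genes changed between 4 and 0 days post amputation (dpa) in sorted cells, which was made from the same sorted libraries, and rargb came only from the table of open chromatin regions. The 4 against 0 dpa change in sorted cells is therefore described here and no test of it is read as a result. All 10 members passed the filter on low counts in both experiments.

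The first experiment held 8 libraries of cells sorted from adult Tg(sp7:EGFP) fins, in which EGFP is driven by regulatory sequence of the osteoblast gene sp7. The sp7+ and sp7- cells were collected at 4 dpa from regenerated tissue beyond the cut and at 0 dpa from uninjured fins, with 2 libraries for each combination. Fish were pooled for each replicate, both populations of a replicate came from the same collection, and the enzymes and the tissue taken differed between the 2 days, so day, tissue and dissociation cannot be told apart. The second experiment held 12 libraries of unsorted fin tissue from fosl1a KO fish and fosl1a WT fish at 0, 1 and 4 dpa, with 2 libraries for each genotype and day. The study describes its fosl1a mutants as homozygous CRISPR mutants that were compared with wildtype siblings. It refers to expression changes in their regenerates, so 0 dpa fin may have been compared with regenerated tissue. Day and tissue cannot be told apart there either. The labels give no age for single libraries. The methods describe a collection of fins for each sorted replicate, whereas nothing ties each unsorted library to separate fish. The p-values measure only the spread between these libraries, which may be technical in unsorted fins.

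Retinoic acid is made from vitamin A and acts as a local signal. Retinol travels in blood bound to Rbp4, is oxidised to retinal by dehydrogenases of the Rdh and Dhrs families, and retinal is oxidised to retinoic acid by Aldh1a enzymes. Inside cells, retinoids are carried by cellular retinol-binding proteins and Crabp proteins, retinoic acid acts through Rar and Rxr nuclear receptors, and Cyp26 enzymes degrade it. In the zebrafish fin, retinoic acid is known to be needed for formation of the blastema, the mass of dividing cells that rebuilds the lost part, and Cyp26 activity is known to matter for osteoblast differentiation.

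Total counts ran between 28906309 and 50312755 per sorted library and between 10194983 and 31507208 per unsorted library, and levels are given as CPM, counts divided by library size and TMM factor, in which 1 count was worth at most 0.0788. CPM do not correct for gene length, so levels are compared within a gene only. The library labelled fosl1a KO 0 dpa replicate 1 stood apart, with the lowest total, the highest TMM factor of the unsorted libraries (1.25) and a sum of 753 CPM over 7 osteoblast markers, where KO 0 dpa replicate 2 had 3061 CPM. The targeted gene fosl1a had 11.1 and 9.20 CPM at 0 dpa, 34.2 and 46.1 CPM at 1 dpa and 2.24 and 2.98 CPM at 4 dpa in KO fins, against 2.71 and 3.96 CPM, 119 and 140 CPM, and 2.31 and 3.40 CPM in WT fins on the same days. Counts over a whole gene do not show whether a short CRISPR lesion is present, so these values do not check the genotype. In sorted cells fosl1a averaged 1372 CPM in sp7+ and 1446 CPM in sp7- cells at 0 dpa. At 4 dpa it averaged 312 CPM in sp7+ and 352 CPM in sp7- cells. These levels lie far above those of uninjured WT fins, so levels in sorted cells need not be those of intact tissue. The part of dissociation and sorting was not tested. The gene sp7 had 74.1 to 113 CPM at 4 dpa and 30.0 to 31.9 CPM at 0 dpa in sp7+ cells, and at most 1.38 CPM in sp7- cells. The sp7+ cells also carried epidermal transcripts, with 62130 to 74590 CPM over 8 epidermal markers at 0 dpa, where sp7- cells had 77840 to 80260 CPM. Of the 8, krt4, cldne, cldnb and epcam were higher in both sp7+ libraries than in both sp7- libraries at 0 dpa, krt5, TP63 and cldni were lower, and cdh1 overlapped. The keratin gene krt4 averaged 32706 CPM in sp7+ and 1223 CPM in sp7- cells, and the keratin gene krt5 averaged 18478 CPM in sp7+ and 68309 CPM in sp7- cells.

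In unsorted fins, members of supply, synthesis, degradation and intracellular binding changed beyond 2-fold between days in at least 1 genotype, by the test below. Neither receptor member passed that test, although in both genotypes rarab was lower after amputation and rargb was highest at 4 dpa. Supply and the carrier crabp1b were lower after amputation, whereas synthesis genes, crabp2b, cyp26a1 and rbp5 were higher at 1 dpa, 4 dpa or both. Among the members, the degradation step rests on 1 call, of cyp26a1 in KO fins, that was lost in 5 of 9 alternative settings. For comparisons of days, edgeR tested each of 20157 genes for a change beyond 2-fold, at a false discovery rate of 0.05. At 1 against 0 dpa, 2 of 10 members passed in KO fins, where 10% of all genes passed, and 2 of 10 passed in WT fins, where 15.3% of all genes passed. At 4 against 0 dpa, 7 of 10 members passed in KO fins beside 15% of all genes, and 4 of 10 passed in WT fins beside 11.5% of all genes. Since 9 members were listed for a change between these days in sorted fin cells, a count above the all-gene share is partly built in. Of 14 tested genes of the same families that are no members, 1 was higher and 1 lower in KO fins. In WT fins 2 of these were higher and 2 lower. Between 4 and 1 dpa, 3 of 10 passed in KO fins beside 9.88% of all genes and 1 of 10 passed in WT fins beside 8.97%. The KO and WT series do not share libraries, and a count in each does not test whether the genotypes differ, which is taken up below by the difference in change.

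The retinol carrier gene rbp4 was by far highest before amputation. It had 964 and 927 CPM at 0 dpa, 104 and 125 CPM at 1 dpa and 27.0 and 19.0 CPM at 4 dpa in KO fins. In WT fins it had 781 and 712 CPM at 0 dpa, 29.7 and 25.8 CPM at 1 dpa and 47.7 and 56.2 CPM at 4 dpa. No library after amputation came near the 0 dpa level in either genotype, and the lowest day was 4 dpa in KO fins and 1 dpa in WT fins. At 1 dpa rbp4 had fallen in KO fins (log2 fold change -3.04 ± 0.22 SE, edgeR adjusted p = 4.42e-05) and in WT fins (-4.75 ± 0.24, adjusted p = 1.18e-06). At 4 dpa it was lower than at 0 dpa by a log2 fold change of -5.36 ± 0.25 in KO fins (adjusted p = 9.56e-07) and of -3.84 ± 0.23 in WT fins (adjusted p = 1.76e-05). In KO fins it also fell between 1 and 4 dpa (-2.32 ± 0.22, adjusted p = 0.00037). In bulk tissue, fewer cells of a type and less RNA per cell cannot be told apart, here and below. Markers of several cell types moved with these days as well. The 7 osteoblast markers summed to 753 to 3061 CPM at 0 dpa, 192 to 204 CPM at 1 dpa and 16440 to 22360 CPM at 4 dpa in KO fins, and to 2698 to 3000 CPM, 145 to 196 CPM and 16560 to 23680 CPM in WT fins. The 7 fibroblast and blastema mesenchyme markers summed to 148 to 231 CPM, 105 to 116 CPM and 639 to 649 CPM on these days in KO fins, and to 226 to 251 CPM, 194 to 201 CPM and 634 to 678 CPM in WT fins. Both of these lists were highest at 4 dpa, whereas the 8 epidermal markers were lowest then. Their sum was 70000 to 124700 CPM, 91890 to 112700 CPM and 54180 to 64100 CPM in KO fins, and 82200 to 103600 CPM, 98620 to 103500 CPM and 38820 to 45320 CPM in WT fins. The part of these markers in the changes over time was not tested.

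The retinoic acid synthesis gene aldh1a2 was higher on both days after amputation. It had 7.25 and 7.24 CPM at 0 dpa, 15.3 and 12.8 CPM at 1 dpa and 24.0 and 31.5 CPM at 4 dpa in KO fins. In WT fins it had 8.24 and 6.56 CPM at 0 dpa, 17.8 and 16.7 CPM at 1 dpa and 16.6 and 20.8 CPM at 4 dpa. The 4 dpa libraries stood above the 1 dpa libraries in KO fins, whereas the 2 days overlapped in WT fins. The rise at 4 dpa passed the 2-fold test in KO fins (log2 fold change 1.94 ± 0.21 SE, edgeR adjusted p = 0.0014). The WT values were 1.21 ± 0.20 at 1 dpa (adjusted p = 0.22) and 1.33 ± 0.20 at 4 dpa (adjusted p = 0.113), and the KO value at 1 dpa was 0.95 ± 0.21 (adjusted p = 0.96). None of these 3 passed the test against a 2-fold change.

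The second synthesis gene, aldh1a3, had overlapping levels at 0 and 1 dpa and higher ones at 4 dpa. In KO fins it had 20.2 and 22.6 CPM at 0 dpa, 19.3 and 20.9 CPM at 1 dpa and 90.8 and 74.3 CPM at 4 dpa. In WT fins it had 22.9 and 30.0 CPM, 22.0 and 26.8 CPM, and 54.5 and 48.9 CPM on the same days. All 4 dpa libraries of a genotype were above its earlier libraries. The KO rise passed the test against 0 dpa (1.94 ± 0.20, adjusted p = 0.000998) and against 1 dpa (2.04 ± 0.20, adjusted p = 0.000797). The WT value at 4 against 0 dpa was 0.97 ± 0.19 (adjusted p = 0.832).

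The degradation gene cyp26a1 was highest at 1 dpa in KO fins, where the fall between 1 and 4 dpa did not pass (log2 fold change -1.435, edgeR adjusted p = 0.101). It had 78.7 and 46.4 CPM at 0 dpa, 197 and 198 CPM at 1 dpa and 68.8 and 77.6 CPM at 4 dpa there. In WT fins it had 70.5 and 81.9 CPM at 0 dpa, 182 and 222 CPM at 1 dpa and 164 and 190 CPM at 4 dpa. The 4 dpa KO libraries lay within the range of the 0 dpa KO libraries, whereas both 4 dpa WT libraries stayed above those of 0 dpa. The change at 1 dpa passed in KO fins (1.66 ± 0.24, adjusted p = 0.0251) and was 1.41 ± 0.24 in WT fins (adjusted p = 0.0903). The KO call was lost without KO 0 dpa replicate 2 or either KO 1 dpa library, with only the groups compared and with DESeq2. At 4 against 0 dpa the values were 0.23 ± 0.24 in KO fins (adjusted p = 1) and 1.22 ± 0.24 in WT fins (adjusted p = 0.308).

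The retinoic acid carriers crabp1b and crabp2b went opposite ways. In KO fins crabp1b had 14.6 and 15.5 CPM at 0 dpa, 6.87 and 7.54 CPM at 1 dpa and 3.18 and 2.21 CPM at 4 dpa. In WT fins crabp1b had 13.3 and 12.3 CPM, 6.06 and 5.02 CPM, and 2.56 and 3.12 CPM on these days. Each later day lay below the day before it in both genotypes. By 4 dpa crabp1b had fallen in KO fins (-2.48 ± 0.22, adjusted p = 0.000144) and in WT fins (-2.16 ± 0.21, adjusted p = 0.000701). The gene crabp2b had 20.02 and 23.2 CPM at 0 dpa, 66.0 and 52.2 CPM at 1 dpa and 54.6 and 66.3 CPM at 4 dpa in KO fins. It had 24.6 and 21.5 CPM, 95.5 and 74.1 CPM, and 67.7 and 74.1 CPM in WT fins. Every library after amputation was above every library before it. At 1 dpa the value was 1.45 ± 0.20 in KO fins (adjusted p = 0.0556), and crabp2b rose in WT fins (1.88 ± 0.20, adjusted p = 0.0016). At 4 dpa it rose in KO fins (1.48 ± 0.20, adjusted p = 0.0319) and in WT fins (1.62 ± 0.20, adjusted p = 0.0139). The KO call at 4 dpa was lost without KO 0 dpa replicate 1 or KO 4 dpa replicate 2 and with only the groups compared, and the WT call without WT 0 dpa or WT 4 dpa replicate 2. Both were also lost with DESeq2.

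Among the cellular retinol-binding genes, rbp5 rose late. It had 6.62 and 7.15 CPM at 0 dpa, 6.38 and 3.77 CPM at 1 dpa and 33.2 and 27.4 CPM at 4 dpa in KO fins, against 9.25 and 6.82 CPM, 4.92 and 4.16 CPM, and 45.9 and 48.4 CPM in WT fins. The 4 dpa libraries of each genotype stood clear of the earlier ones. Between 1 and 4 dpa rbp5 rose in KO fins (2.58 ± 0.25, adjusted p = 0.000369) and in WT fins (3.37 ± 0.25, adjusted p = 2.73e-05), where it was the only member to pass. Against 0 dpa the 4 dpa values were 2.13 ± 0.25 in KO fins (adjusted p = 0.00137) and 2.55 ± 0.24 in WT fins (adjusted p = 0.000344), and both passed. The related gene rbp7a was low throughout, with 10.6 and 5.97 CPM at 0 dpa, 2.76 and 2.88 CPM at 1 dpa and 1.57 and 1.76 CPM at 4 dpa in KO fins. In WT fins rbp7a had 3.84 and 5.88 CPM, 3.52 and 2.35 CPM, and 2.61 and 3.79 CPM. It fell in KO fins at 4 dpa (-2.30 ± 0.36, adjusted p = 0.00554), a call lost without KO 4 dpa replicate 1, and the WT value was -0.58 ± 0.33 (adjusted p = 1).

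Outside alternative settings, neither receptor member passed the 2-fold test in any comparison of days in unsorted fins. The retinoic acid receptor gene rarab had 14.1 and 16.9 CPM at 0 dpa, 10.4 and 11.6 CPM at 1 dpa and 11.0 and 9.36 CPM at 4 dpa in KO fins, and 12.8 and 14.6 CPM, 9.09 and 8.36 CPM, and 7.03 and 7.41 CPM in WT fins. Its libraries after amputation all lay below those of 0 dpa. The receptor gene rargb had 5.20 and 11.5 CPM, 3.80 and 6.86 CPM, and 21.0 and 15.7 CPM in KO fins, and 11.3 and 10.1 CPM, 6.87 and 6.997 CPM, and 16.8 and 14.8 CPM in WT fins. It was highest at 4 dpa in both genotypes. The largest rargb value, at 4 against 1 dpa in KO fins, was 1.77 ± 0.34 (adjusted p = 0.0554). This value passed in 4 of 9 alternatives, among them DESeq2 size factors, no filter on low counts and only the groups compared.

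**Figure D1:**
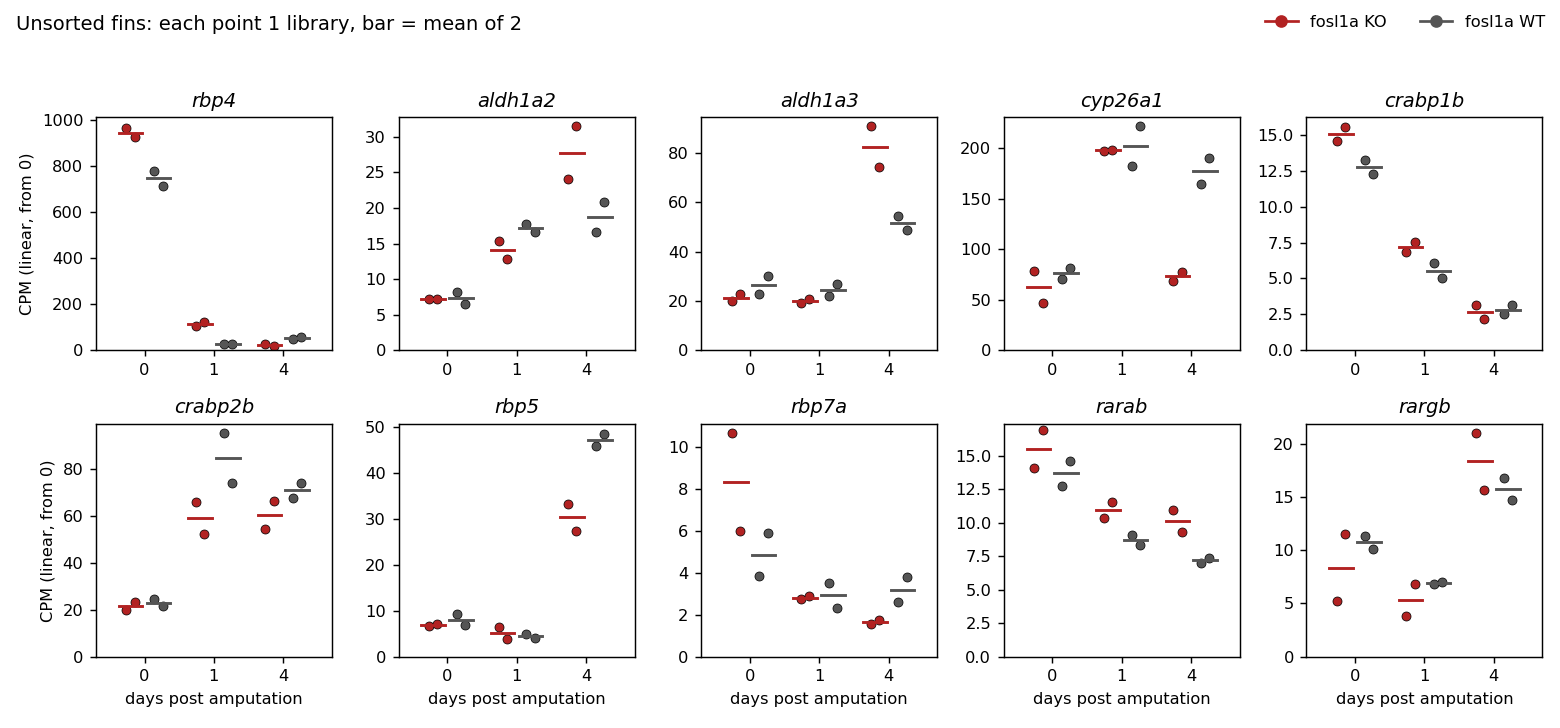
Level of each member in unsorted fins, in CPM on a linear axis from 0, against days post amputation, with KO fins left of WT fins, 1 point per library and a bar at the mean of 2. The gene rbp4 is far higher at 0 dpa than later, rbp5 is high only at 4 dpa, and cyp26a1 at 4 dpa is 68.8 and 77.6 CPM in KO fins and 164 and 190 CPM in WT fins.

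**Figure D2:**
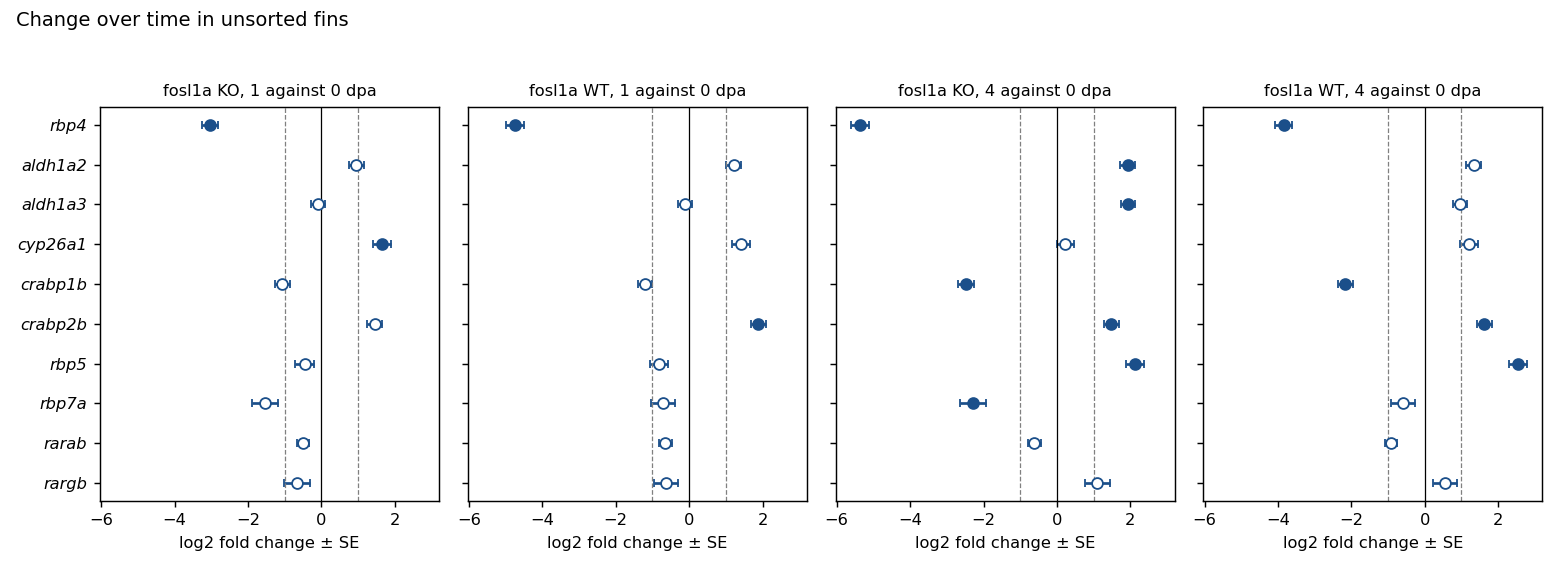
Log2 fold change with its standard error for each member at 1 and at 4 against 0 dpa, with KO panels left of WT panels. Filled points passed the edgeR test against a 2-fold change (dashed lines), which 2 members did in each genotype at 1 dpa, and 7 in KO and 4 in WT fins at 4 dpa.

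Fins of fosl1a KO and fosl1a WT fish were next compared on each day, to see whether mutation of fosl1a went with other levels of these genes. The study proposes the AP-1 factor Fosl1a as an upstream regulator and reports delayed early regeneration in its mutants. It found predicted targets of the factor less induced in mutants at 1 dpa, with levels caught up by 4 dpa. After amputation, KO and WT fins of 1 day may thus differ in stage, and stage and genotype cannot be told apart. The genotype tests were against no difference. At 0 dpa none of the 10 members passed, beside 0.352% of all genes. At 1 dpa 1 of 10 passed, beside 1.23% of all genes, and at 4 dpa 4 of 10 passed, beside 29.4% of all genes, so the 4 dpa count is to be read against a large background. Without KO 4 dpa replicate 1 only 126 genes, in place of 5933, passed at 4 dpa, without WT 4 dpa replicate 1 or 2 the count was 2399 or 1243, and between 1 and 3 members passed when a library was left out. At 1 dpa the count over all genes was 248, and 7 to 28 when any library was left out. Marker sums also differed at 4 dpa, with 54180 to 64100 CPM in KO fins and 38820 to 45320 CPM in WT fins for the 8 epidermal markers, and 111 to 139 CPM in KO fins and 79.0 to 80.8 CPM in WT fins for 4 leukocyte markers. The 4 endothelial markers summed to 56.8 to 65.2 CPM in KO fins and 47.4 to 53.9 CPM in WT fins at 4 dpa, and the osteoblast, mesenchyme and pigment cell markers overlapped. At 1 dpa the mesenchyme markers summed to 105 to 116 CPM in KO fins and 194 to 201 CPM in WT fins, and the leukocyte markers to 90.01 to 100.2 CPM in KO fins and 71.1 to 79.5 CPM in WT fins. The part of these markers in the genotype differences was not tested.

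The supply gene rbp4 differed in opposite directions on the 2 days after amputation. At 1 dpa it was higher in KO fins, with 104 and 125 CPM in KO fins and 29.7 and 25.8 CPM in WT fins (log2 fold change 2.05 ± 0.22 SE, edgeR adjusted p = 0.00198). This call was lost without WT 1 dpa replicate 2 (adjusted p = 0.0714). At 4 dpa rbp4 was lower in KO fins, with 27.0 and 19.0 CPM in KO fins and 47.7 and 56.2 CPM in WT fins (-1.18 ± 0.21, adjusted p = 0.00451). This call was kept in all 9 alternatives, in the weakest of them only just. The change between 0 and 1 dpa differed between genotypes by 1.70 ± 0.30 (KO minus WT, adjusted p = 0.0294). That between 0 and 4 dpa differed by -1.52 ± 0.30 (adjusted p = 0.0135). The call for the change to 1 dpa was lost with only the groups compared and without any library of WT 0 dpa, WT 1 dpa or KO 1 dpa, and was kept in 6 of 13 alternatives. The call for the change to 4 dpa was lost with only the groups compared and without WT 0 dpa or WT 4 dpa replicate 2, and was kept in 10 of 13. Of the members, 1 passed for the change to 1 dpa, beside 0.506% of all genes, and 3 passed for the change to 4 dpa, beside 18.5% of all genes.

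Both synthesis genes were higher in KO fins at 4 dpa. For aldh1a2 the libraries had 24.0 and 31.5 CPM in KO fins and 16.6 and 20.8 CPM in WT fins, which did not overlap (0.57 ± 0.19, adjusted p = 0.0468). Leaving out any of these 4 libraries, or adding the replicate number as a block, took the aldh1a2 call away, with adjusted p up to 0.268. For aldh1a3 the libraries had 90.8 and 74.3 CPM in KO fins and 54.5 and 48.9 CPM in WT fins (0.67 ± 0.19, adjusted p = 0.0225). The aldh1a3 call was lost without either WT library or without KO replicate 1 of that day. The change of aldh1a3 between 0 and 4 dpa was also larger in KO fins, by 0.98 ± 0.27 (adjusted p = 0.0324). That call was lost without KO 0 dpa replicate 1, KO 4 dpa replicate 1, WT 0 dpa replicate 2 or either WT 4 dpa library and with only the groups compared, and was kept in 7 of 13. The difference in change of aldh1a2 was 0.60 ± 0.28 (adjusted p = 0.149).

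The degradation gene cyp26a1 was lower in KO fins at 4 dpa, and the libraries did not overlap. It had 68.8 and 77.6 CPM in KO fins and 164 and 190 CPM in WT fins, a 2.42-fold lower mean (-1.27 ± 0.24, adjusted p = 0.00511). The call was lost without WT 4 dpa replicate 2 or KO 4 dpa replicate 1, with adjusted p up to 0.0635. On the 2 earlier days the genotypes overlapped, with 197 and 198 CPM in KO fins and 182 and 222 CPM in WT fins at 1 dpa. The difference in change to 4 dpa was -0.99 ± 0.34 (adjusted p = 0.0623).

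The members among intracellular carriers and receptors did not pass between genotypes at 4 dpa. The nearest were rarab (0.49 ± 0.17, adjusted p = 0.0519), rbp5 (-0.64 ± 0.23, adjusted p = 0.055) and rbp7a (-0.95 ± 0.36, adjusted p = 0.0688), and their libraries did not overlap. Each of these passed in 2 or 3 of 9 alternatives, and rbp5 did so with the replicate block. For rbp7a the change between 0 and 4 dpa differed by -1.71 ± 0.49 (adjusted p = 0.0352), with 10.6 and 5.97 CPM in KO fins and 3.84 and 5.88 CPM in WT fins at 0 dpa. The rbp7a call was kept in 5 of 13 alternatives, and was lost with only the groups compared and without any library of these groups other than KO 0 dpa replicate 2. For crabp1b, crabp2b and rargb approximate intervals of the 4 dpa difference ran between -0.52 and 0.36, between -0.62 and 0.15 and between -0.41 and 0.85 (log2). They were made from the standard error by a normal approximation, which with 2 libraries a group makes them narrower than true 95% intervals.

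**Figure D3:**
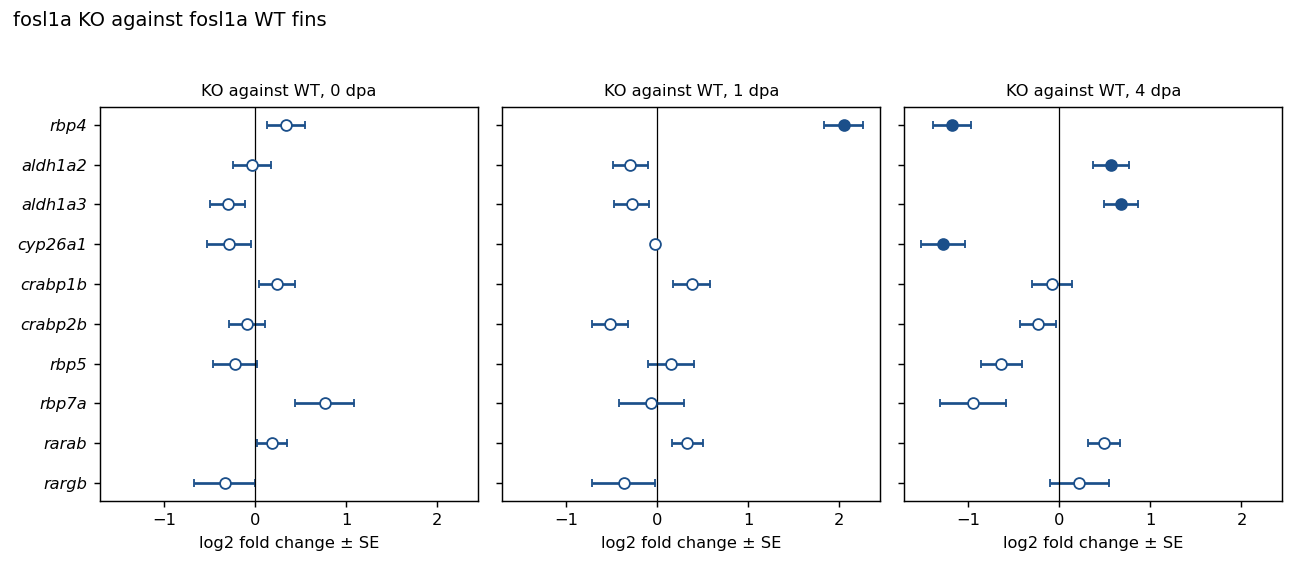
Log2 fold change of KO over WT fins with its standard error for each member at 0, 1 and 4 dpa, other than cyp26a1 at 1 dpa, whose difference was too close to 0 to give an error. Filled points passed the edgeR test against no difference, which were rbp4 alone at 1 dpa, and rbp4, aldh1a2, aldh1a3 and cyp26a1 at 4 dpa.

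The sorted libraries give the levels of the members in 2 populations of dissociated cells. Such levels do not give the share of a fin's transcripts that each population holds. The sp7+ and sp7- cells were compared on each day against a 2-fold difference over 18641 genes. These are the libraries whose changes over time listed 9 of the members, so the tests are not made in separate samples. At 4 dpa 3 of 10 members passed, beside 9.02% of all genes, and at 0 dpa 6 of 10 passed, beside 18% of all genes. Adding the replicate as a block within each day changed none of these calls. The median over all genes at 0 dpa moved between -0.07 with TMM and 0.05 with DESeq2 size factors.

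Synthesis genes were split between the populations. The gene aldh1a3 was higher in sp7+ cells, with 78.4 and 112 CPM in sp7+ cells and 6.57 and 5.20 CPM in sp7- cells at 4 dpa (log2 fold change 4.01 ± 0.26 SE, edgeR adjusted p = 1.97e-06). At 0 dpa aldh1a3 had 25.8 and 26.4 CPM in sp7+ cells and 3.84 and 3.45 CPM in sp7- cells (2.84 ± 0.25, adjusted p = 3.55e-05). Both calls held in all 10 alternatives. The gene aldh1a2 was lower in sp7+ cells, with 12.3 and 9.93 CPM in sp7+ cells and 28.5 and 28.7 CPM in sp7- cells at 4 dpa (-1.36 ± 0.28, adjusted p = 0.251, not passed). At 0 dpa aldh1a2 had 0.843 and 1.36 CPM in sp7+ cells and 2.99 and 5.41 CPM in sp7- cells (-1.93 ± 0.35, adjusted p = 0.0168). The 0 dpa call was lost without sp7- replicate 2 or sp7+ replicate 1 of that day and with DESeq2.

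The degradation gene cyp26a1 was lower in sp7+ cells on both days. It had 30.3 and 21.2 CPM in sp7+ cells and 71.0 and 92.4 CPM in sp7- cells at 4 dpa (-1.66 ± 0.27, adjusted p = 0.0369), a call lost without either sp7- library or sp7+ replicate 2 of that day and with DESeq2. At 0 dpa it had 4.70 and 6.62 CPM in sp7+ cells and 53.7 and 73.3 CPM in sp7- cells (-3.49 ± 0.29, adjusted p = 1.39e-05), and that call held in all 10 alternatives.

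The retinol-binding gene rbp7a had its highest levels in sp7+ cells. At 4 dpa it had 27.3 and 9.90 CPM in sp7+ cells and 0.544 and 0.256 CPM in sp7- cells (5.51 ± 0.56, adjusted p = 6.16e-05). At 0 dpa it had 309 and 245 CPM in sp7+ cells and 7.93 and 3.79 CPM in sp7- cells (5.57 ± 0.52, adjusted p = 1.51e-05). Both calls held in all 10 alternatives. Of the 8 epidermal markers, 4 were also higher in sp7+ cells at 0 dpa, 3 were lower and 1 overlapped. The part of epidermal transcripts in the rbp7a difference was not tested.

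The supply gene rbp4 and 1 of the 2 receptor members, rargb, were lower in sp7+ cells at 0 dpa. The gene rbp4 had 42.9 and 122 CPM in sp7+ cells and 215 and 500 CPM in sp7- cells at 0 dpa (-2.12 ± 0.50, adjusted p = 0.0377), and the call was lost without sp7- replicate 2 or sp7+ replicate 1 and with DESeq2. At 4 dpa rbp4 had 7.12 and 3.29 CPM in sp7+ cells and 11.2 and 14.3 CPM in sp7- cells (-1.28 ± 0.50, adjusted p = 0.647). The receptor gene rargb had 1.42 and 1.36 CPM in sp7+ cells and 6.23 and 4.08 CPM in sp7- cells at 0 dpa (-1.89 ± 0.30, adjusted p = 0.011), a call lost without sp7- replicate 1 and with DESeq2. At 4 dpa rargb had 3.82 and 4.89 CPM in sp7+ cells and 6.06 and 6.59 CPM in sp7- cells (-0.54 ± 0.26, adjusted p = 1). The receptor gene rarab had 24.5 and 19.4 CPM in sp7+ cells and 8.996 and 9.85 CPM in sp7- cells at 0 dpa (1.22 ± 0.25, adjusted p = 0.254). The carriers crabp1b, crabp2b and rbp5 did not pass on either day.

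**Figure D4:**
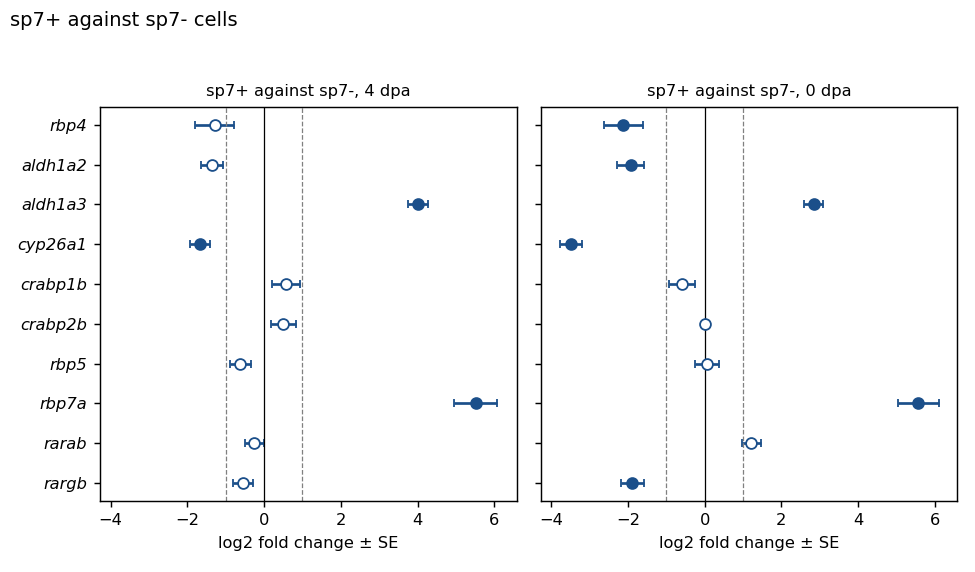
Log2 fold change of sp7+ over sp7- cells with its standard error for each member at 4 dpa and at 0 dpa, other than crabp2b at 0 dpa, whose difference was too close to 0 to give an error. Filled points passed the edgeR test against a 2-fold difference (dashed lines). The genes aldh1a3 and rbp7a lie to the right and cyp26a1 to the left on both days.

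Between 4 and 0 dpa the members moved in sorted cells as follows, given as a description because these libraries listed 9 of them. The choice of members fixed most of the calls here, so nothing is read from the 9 of 10 members past 2-fold in sp7+ cells, beside 27.4% of all genes, or the 6 of 10 in sp7- cells, beside 17.1%. In sp7+ cells aldh1a2 had 12.3 and 9.93 CPM at 4 dpa and 0.843 and 1.36 CPM at 0 dpa, and in sp7- cells it had 28.5 and 28.7 CPM at 4 dpa and 2.99 and 5.41 CPM at 0 dpa. The log2 fold changes of aldh1a2 were 3.33 in sp7+ cells and 2.76 in sp7- cells. Those of aldh1a3 were 1.86 in sp7+ cells and 0.69 in sp7- cells. The gene cyp26a1 had a value of 2.19 in sp7+ cells and of 0.36 in sp7- cells, whose libraries overlapped between the days. For the retinol carrier rbp4 the values were -3.98 in sp7+ cells and -4.81 in sp7- cells.

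Among the carriers, crabp2b had 22.4 and 20.8 CPM at 4 dpa and 1.997 and 5.22 CPM at 0 dpa in sp7+ cells, and 15.5 and 14.9 CPM at 4 dpa and 3.02 and 4.23 CPM at 0 dpa in sp7- cells. Its relative crabp1b had 2.76 and 2.63 CPM at 4 dpa and 6.61 and 15.3 CPM at 0 dpa in sp7+ cells, and 1.88 and 1.77 CPM at 4 dpa and 12.9 and 20.2 CPM at 0 dpa in sp7- cells. The study listed crabp2b as raised and crabp1b as lowered in both populations from these same libraries. These directions were thus fixed by the listing and add nothing to those seen in unsorted fins. The gene rbp5 had 9.71 and 12.7 CPM at 4 dpa and 2.66 and 5.30 CPM at 0 dpa in sp7+ cells, and 17.8 and 16.6 CPM at 4 dpa and 3.78 and 3.89 CPM at 0 dpa in sp7- cells. For rbp7a the log2 fold changes were -3.89 in sp7+ cells and -3.83 in sp7- cells. The receptor rarab had 6.60 and 4.45 CPM at 4 dpa and 24.5 and 19.4 CPM at 0 dpa in sp7+ cells, with a value of -1.98, and the sp7- value was -0.51. For rargb the values were 1.64 in sp7+ cells and 0.30 in sp7- cells. The 8 epidermal markers summed to 15750 to 18230 CPM at 4 dpa and 62130 to 74590 CPM at 0 dpa in sp7+ cells, and to 27400 to 34960 CPM at 4 dpa and 77840 to 80260 CPM at 0 dpa in sp7- cells, and the 7 osteoblast markers to 33680 to 51880 CPM at 4 dpa and 2002 to 6203 CPM at 0 dpa in sp7+ cells, and to 2170 to 3135 CPM at 4 dpa and 53.8 to 69.0 CPM at 0 dpa in sp7- cells. The 7 fibroblast and blastema mesenchyme markers summed to 352 to 384 CPM at 4 dpa and 85.6 to 149 CPM at 0 dpa in sp7+ cells, and to 368 to 473 CPM at 4 dpa and 112 to 118 CPM at 0 dpa in sp7- cells. Their part in these values was not tested.

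**Figure D5:**
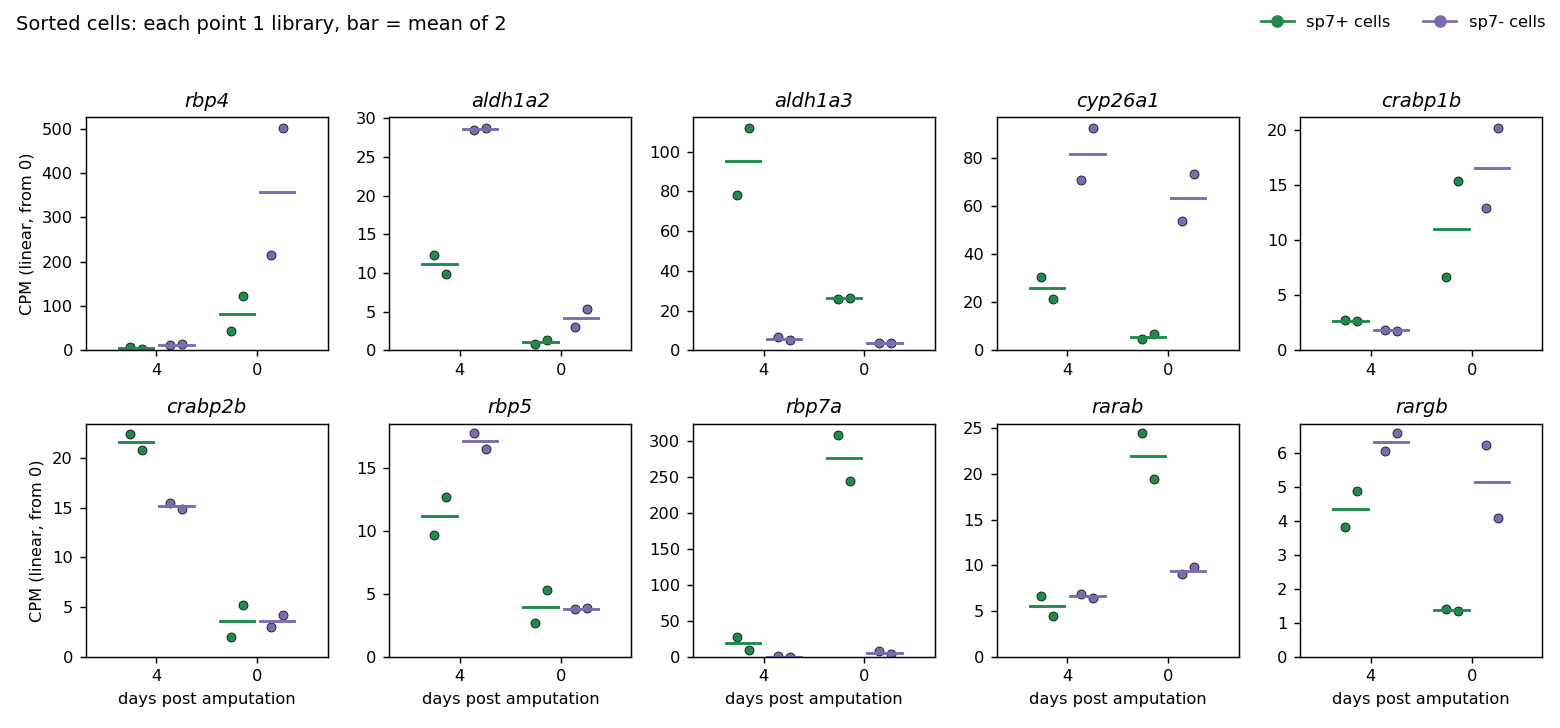
Level of each member in sorted cells, in CPM on a linear axis from 0, with 4 dpa left of 0 dpa and sp7+ left of sp7- cells, 1 point per library and a bar at the mean of 2. The genes aldh1a3 and rbp7a are highest in sp7+ cells and cyp26a1 is highest in sp7- cells on both days.

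The same families hold 25 further genes of the pathway list, named by a general vertebrate symbol where the reference gives no zebrafish paralog letter. Of these, 14 were tested in unsorted fins and 13 in sorted cells. The degradation gene CYP26B1 (ENSDARG00000077121) averaged 147, 43.8 and 196 CPM at 0, 1 and 4 dpa in KO fins and 145, 70.5 and 168 CPM in WT fins. Unlike cyp26a1 in KO fins, CYP26B1 fell at 1 dpa there (log2 fold change -1.74 ± 0.21 SE, edgeR adjusted p = 0.00665) and rose between 1 and 4 dpa (2.16 ± 0.21, adjusted p = 0.000555). The third family gene, CYP26C1 (ENSDARG00000056029), rose at 4 against 0 dpa in KO fins (2.29 ± 0.25, adjusted p = 0.000675) and in WT fins (2.19 ± 0.25, adjusted p = 0.00139). In sorted cells CYP26B1 averaged 13.7 CPM in sp7+ cells and 80.6 CPM in sp7- cells at 4 dpa, and 12.5 CPM in sp7+ cells and 113 CPM in sp7- cells at 0 dpa. CYP26C1 averaged 8.29 CPM in sp7+ cells and 30.4 CPM in sp7- cells at 4 dpa, and 3.05 CPM in sp7+ cells and 31.2 CPM in sp7- cells at 0 dpa. All 3 cyp26 genes were thus lower in sp7+ cells on both days by the 2-fold test, with CYP26B1 at -2.55 ± 0.26 (adjusted p = 0.000281) and CYP26C1 at -1.87 ± 0.27 (adjusted p = 0.0115) at 4 dpa, and cyp26a1 dependent there on single libraries.

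Of the dehydrogenases that the member rule did not find, an RDH10 gene (ENSDARG00000058730), whose product makes retinal from retinol, rose at 1 dpa in KO fins (1.72 ± 0.23, adjusted p = 0.0127) and in WT fins (2.43 ± 0.22, adjusted p = 0.000172). It averaged 5.32, 17.7 and 11.5 CPM at 0, 1 and 4 dpa in KO fins and 4.61, 24.8 and 9.38 CPM in WT fins. A second RDH10 gene (ENSDARG00000012369) averaged 6.29 to 8.70 CPM over the days in KO fins and 6.31 to 10.01 CPM in WT fins. An RDH14 gene (ENSDARG00000039299) fell at 1 dpa in KO fins (-1.84 ± 0.22, adjusted p = 0.00578) and in WT fins (-2.72 ± 0.23, adjusted p = 8.32e-05). The gene RDH11 averaged 11.7 CPM in KO fins and 46.3 CPM in WT fins at 0 dpa and fell at 4 dpa in WT fins (-3.13 ± 0.55, adjusted p = 0.00791). The other RDH14 gene (ENSDARG00000002467), rdh12l and the 2 RDH8 genes that were tested averaged at most 12.3, 48.5 and 3.92 CPM over the unsorted groups. The receptor gene raraa fell at 4 against 0 dpa in KO fins (-2.03 ± 0.38, adjusted p = 0.0207) and in WT fins (-2.08 ± 0.38, adjusted p = 0.0228), and RARG (ENSDARG00000034117) averaged 338 CPM in KO fins and 177 CPM in WT fins at 4 dpa (0.93 ± 0.33, adjusted p = 0.0528). The carrier CRABP2 (ENSDARG00000073978) averaged 80.6 CPM in KO fins and 153 CPM in WT fins at 4 dpa and was lower in KO fins (-0.93 ± 0.19, adjusted p = 0.0067). In that comparison CYP26C1 was higher (0.73 ± 0.23, adjusted p = 0.0356) and rdh12l (-0.87 ± 0.29, adjusted p = 0.0459) and the second RDH10 gene (-0.67 ± 0.17, adjusted p = 0.0161) were lower in KO fins. The genes CRABP1, RBP7, rbp3, rbp4l, rdh1, rdh5, rdh20, a further RBP2 and a further RDH8 were at or near 0, with no group mean above 0.483 CPM.

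In the whole pathway list of 77 further genes, 60 were tested in unsorted fins. At 1 against 0 dpa 1 rose and 8 fell in KO fins (15% of those tested, beside 10% of all genes), and 1 rose and 13 fell in WT fins (23.3%, beside 15.3%), with a list median of -0.58 in KO fins and -0.60 in WT fins beside medians over all genes of -0.01 and -0.06. The WT falls were led by RDH11 (-3.72), DHRS3 (ENSDARG00000044982, -2.79), RDH14 (-2.72) and the nuclear receptor gene nr2f2 (-2.35). The KO falls were led by the carotenoid-cleaving genes bco1l (-2.39), bco2a (-2.36) and BCO2 (-2.35) and by dhrs3b (-2.03), whose product turns retinal back to retinol. At 4 against 0 dpa 5 rose and 6 fell in KO fins (18.3%, beside 15% of all genes), and 5 rose and 4 fell in WT fins (15%, beside 11.5%). The WT rises were led by the cellular retinoid-binding gene RBP2 (ENSDARG00000070038, means of 0.705 CPM at 4 dpa and 0.0362 CPM at 0 dpa), the retinol-esterifying gene lratb (2.72) and rpe65b (2.62), followed by CYP26C1 (2.19). In KO fins LRAT (ENSDARG00000077652) passed with no read at 0 dpa in either library and 0.541 CPM at 4 dpa, followed by CYP26C1 (2.29), the retinol receptor gene STRA6 (1.75) and RXRA (ENSDARG00000035127, 1.62). The falls were bco2a (-2.76), bco1l (-2.54), tgm2l (-2.43) and BCO2 (-2.34) first in KO fins, and RDH11 (-3.13), raraa (-2.08), meis1a (-1.75) and bco2a (-1.75) in WT fins.

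Between 1 and 4 dpa 6 list genes rose and 1 fell in KO fins (11.7%, beside 9.88% of all genes), and 8 rose and 1 fell in WT fins (15%, beside 8.97%). The rises were led by dhrs3b (2.39), rpe65b (2.38), nr2f1a (2.28) and CYP26B1 (2.16) in KO fins and by DHRS3 (4.35), rpe65b (3.70), nr2f1a (2.79) and dhrs3b (2.69) in WT fins, and tgm2l fell in both. Between genotypes no list gene passed at 0 or 1 dpa. At 4 dpa 10 of 60 were higher and 13 lower in KO fins, 38.3% of those tested beside 29.4% of all genes. The higher ones included the receptor gene RXRB (ENSDARG00000078954, 1.44 ± 0.24, adjusted p = 0.00369) and the receptor coregulators ncoa3 (1.30) and NCOR1 (1.28). The lower ones were led by RBP2 (-2.08), BCO1 (-1.36), lratb (-1.31) and SDR16C5 (-1.21). Of these, RBP2 (ENSDARG00000070038) was near the floor, averaging 0.16 CPM in KO fins and 0.71 CPM in WT fins at 4 dpa. The list places RBP2 in intracellular binding, BCO1 and lratb in supply and storage, and SDR16C5 in retinol and retinal interconversion. By sub-list, 6 of 12 tested supply and storage genes and 5 of 18 interconversion genes were lower in KO fins at 4 dpa, beside 16.8% of all genes, and 4 of 7 coregulators and 3 of 8 receptors were higher, beside 12.7%. These genotype counts rest on KO 4 dpa replicate 1 as the count over all genes does.

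In sorted cells 57 list genes were tested. At 4 dpa 6 were higher and 5 lower in sp7+ cells, 19.3% of those tested beside 9.02% of all genes, and at 0 dpa 6 were higher and 12 lower, 31.6% of those tested beside 18% of all genes. The higher genes at 4 dpa were led by STRA6 (4.37 ± 0.42, adjusted p = 5.43e-05), BCO2 (4.15), dhrs3b (3.44) and BCO1 (3.32), and at 0 dpa by BCO2 (3.88), STRA6 (2.98), BCO1 (2.86) and an RDH8 gene (ENSDARG00000105060, 2.42). The gene STRA6 averaged 6.03 CPM in sp7+ cells and 0.293 CPM in sp7- cells at 4 dpa. The lower genes were led by TGM2 (-2.97), CYP26B1 (-2.55), dhrs9 (-2.31) and raraa (-2.10) at 4 dpa and by MEIS2 (-3.45), CYP26C1 (-3.35), CYP26B1 (-3.18) and CRABP2 (-2.75) at 0 dpa.

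The genes whose log2 CPM followed aldh1a2 most closely over the 12 unsorted libraries, among 4876 genes named in the study's tables and tested here, were tdg.1 (Pearson r = 0.980), frem2b (r = 0.976), plppr3a (r = 0.974), lef1 (r = 0.972) and etv4 (r = 0.970). Over the 8 sorted libraries their r with aldh1a2 was 0.915, 0.977, 0.851, 0.899 and 0.978 in the same order. These points share their libraries and group structure, so the values only describe likeness. The candidates came from lists that include genes changed after amputation in these same sorted libraries, aldh1a2 among them. A high r over the sorted libraries is therefore partly built in. The first encodes a thymine DNA glycosylase, frem2b a basement membrane protein, lef1 a transcription factor of the Wnt pathway and etv4 an ETS transcription factor.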

How the data were processed

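RNA-seq reads were processed by the authors, who aligned them with STAR 2.5.2a to GRCz10 and counted read pairs per Ensembl gene with featureCounts 1.5.0, without strand, uniquely mapped reads only. Pairs overlapping more than 1 gene counted towards every such gene, so overlapping and antisense genes cannot be separated. The 2 deposited tables hold raw counts for 32105 genes. The study sorted Tg(sp7:EGFP) fins at 0 and 4 dpa (8 libraries) and took unsorted tissue of fosl1a KO and WT fish at 0, 1 and 4 dpa (12 libraries), 2 libraries a group.

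Genes were filtered with filterByExpr, scaled by TMM and fitted with edgeR 4.0.16 (limma 3.58.1, R 4.3.3) over all libraries of an experiment. Comparisons of days and of populations were tested against a 2-fold change (glmTreat), comparisons of genotypes and differences in change against no difference (glmQLFTest), with Benjamini-Hochberg adjustment over 18641 genes in sorted and 20157 in unsorted libraries and a false discovery rate of 0.05. The standard error was taken from the F statistic. The script was tested on simulated counts. DESeq2 1.42.0 and other settings were alternatives, and the block within each day in comparisons of days in sorted cells was chosen after seeing the data. The study's methods sort both populations of a replicate from the same fins, which pairs the sorted libraries within a day. The correlation of deviations within these pairs was 0.262 at 0 dpa and 0.13 at 4 dpa. Between sorted groups of different days it ran between -0.225 and -0.00673, so the correlations alone do not settle the pairing.

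Members, pathway list and tests were chosen with earlier results of these data known. All members were named, with up to 4 called genes of the pathway list per comparison and direction, the paralogs of the member families, and the 5 genes most correlated with aldh1a2. List symbols were matched exactly, then ignoring case, then without the paralog letter, the last 2 steps being added after seeing the tables, and 26269 of 32105 identifiers had a reference symbol. Gene positions and sequences were not used here because the reference tables are of another assembly. Some genes that these rules name are not reported here.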

Additional observations from a re-analysis of the deposited data

Results flagged for a closer look

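In 4 cases the change over time differed between fosl1a KO and fosl1a WT fins by a test of the difference itself. Of 10 members, 1 passed for the change to 1 dpa, beside 0.506% of all genes, and 3 passed for that to 4 dpa, beside 18.5%. With only the groups compared, all 4 calls were lost. For rbp4 the change between 0 and 1 dpa was 1.70 higher on the log2 scale in KO fins, and the change between 0 and 4 dpa differed by -1.52 (KO minus WT). For aldh1a3 the change between 0 and 4 dpa was 0.98 higher in KO fins, and for rbp7a it differed by -1.71. Without KO 0 dpa replicate 1, the library that stood apart, the aldh1a3 and rbp7a calls were lost and both rbp4 calls were kept, though each of the 4 calls was lost without some other library.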

How the results depend on the processing

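Over the comparisons reported, the members had 1470 values under alternative settings, of which 1377 kept their side of the threshold, 70 lost the call and 23 gained it. Of the values called with the main or the alternative setting, 0 reversed direction, and the direction of other values was not counted. The 1377 include values of members not called with the main setting, so they do not measure how stable the calls were. With DESeq2 the sp7+ against sp7- count at 0 dpa was 3 members in place of 6, and the KO count at 1 against 0 dpa was 1 in place of 2. Fitting only the groups compared gave 1 member for KO fins at 1 against 0 dpa, 5 in place of 3 at 4 against 1 dpa, 7 in place of 4 for KO against WT at 4 dpa, and 0 in place of 1 and 0 in place of 3 for the differences in change to 1 and to 4 dpa. Leaving out 1 library gave 1 to 3 members for KO fins at 1 against 0 dpa, 0 to 1 for KO against WT at 1 dpa, 1 to 3 at 4 dpa, and 0 to 1 and 0 to 5 for the differences in change to 1 and to 4 dpa. For the list gene MEIS2, leaving out KO 0 dpa replicates gave -1.45 to 0.921 for KO against WT at 0 dpa (0.20 with all libraries) and -0.73 to 1.63 for the difference in change to 4 dpa (-0.03), reversing without replicate 2. The cause was not tested.

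Unsorted replicate numbers were not taken to pair the libraries, because no label or method ties them and the correlations between KO and WT were 0.222, 0.139 and 0.0198 at 0, 1 and 4 dpa, which do not settle whether they pair. With the replicate block the KO against WT count at 4 dpa was 4 members, aldh1a2 losing and rbp5 gaining the call, and no other call in unsorted fins changed. In sorted cells the block within each day, as coded, fitted the 4 against 0 dpa change at the level of replicate 1, not of the mean. Under it crabp1b and rargb in sp7+ cells lost the call and rbp5 gained it. These shifts therefore do not show what pairing does to the calls.

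Counts over all genes moved by more than 1.5 times with DESeq2 for sp7+ against sp7- at 4 dpa (1049, against 1681) and at 0 dpa (2105, against 3357), sp7+ 4 against 0 dpa (2917, against 5114) and sp7- 4 against 0 dpa (1786, against 3189). The same held for KO fins at 1 against 0 dpa (1243, against 2020, and 1018 with only the groups compared), 4 against 0 dpa (1795, against 3022) and 4 against 1 dpa (1195, against 1992), and for WT fins at 1 against 0 dpa (1894, against 3077) and 4 against 0 dpa (1259, against 2313). For KO against WT the 71 genes at 0 dpa became 209 with DESeq2, 207 without a filter on low counts and 0 with only the groups compared, and the 248 at 1 dpa became 649, 570 and 533. The differences in change had 102 genes to 1 dpa, which became 291, 261 and 44, and 3720 to 4 dpa, which became 441 with only the groups compared. Leaving out 1 library gave 29 to 1500, 7 to 28, 126 to 4109, 47 to 392 and 79 to 7499 genes for these 5 comparisons in the order KO against WT at 0, 1 and 4 dpa and differences in change to 1 and 4 dpa. Leaving out 1 library also gave 1041 to 1681 for KO 4 against 1 dpa, 1313 to 2384 for KO 1 against 0 dpa, 1963 to 4190 for KO 4 against 0 dpa, 2045 to 2680 for WT 1 against 0 dpa, 1411 to 1986 for WT 4 against 0 dpa, 1165 to 1458 for WT 4 against 1 dpa (1809 with all), 1036 to 1334 for sp7+ against sp7- at 4 dpa, 3364 to 5618 for sp7+ 4 against 0 dpa and 1799 to 2406 for sp7- 4 against 0 dpa, so the shares over all genes move likewise. With DESeq2 size factors the median over all genes moved by over 0.1 only for sp7+ 4 against 0 dpa (0.01, against 0.16 with TMM) and sp7+ against sp7- at 0 dpa (0.05, against -0.07). A group of 1 library was assumed to vary like the others, and 2 libraries a group limit the precision of every value.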
